A study of Mus musculus with 8 samples.

Results

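The myostatin, follistatin and activin genes were followed through developing mouse diaphragm muscle by their gene symbols: Mstn, Gdf11, Inhba, Fst, Fstl1, Acvr2a and Acvr2b. All 7 were among the 19465 genes of the probe set, and all 7 were counted in each of the 8 tissue sections. Transcripts were read with Visium for formalin-fixed paraffin-embedded tissue, an assay in which pairs of gene probes are captured on a slide printed with spots 55 µm wide and 100 µm apart. Each captured molecule is counted once as a UMI. Sections were 5 µm thick and cut in the plane of the diaphragm, so a spot can hold several cells and several cell types. The study asked how gene expression is laid out in the diaphragm during late embryonic development and what changes when CaV1.1 or β-catenin is missing.

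Controls numbered 3 at E14.5 and 2 at E18.5, each a separate diaphragm carrying at least 1 functional CaV1.1 allele and 1 functional β-catenin allele. CaV1.1 -/- (dysgenic) embryos lack the skeletal muscle calcium channel Cacna1s in every cell and cannot contract their muscles. They gave 1 section at E14.5 and 1 at E18.5, and part of the crosses that produced such embryos also carried floxed β-catenin and a muscle Cre. The bCat cKO embryo gave 1 section at E18.5. There floxed β-catenin is removed by Cre under the human skeletal actin (HSA) promoter, which is active in skeletal muscle, and its parents were heterozygous for the CaV1.1 null allele. Controls and bCat cKO could therefore each carry 1 CaV1.1 null allele. A mutant group of 1 section has no spread of its own, and its tests borrow the spread of the controls.

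Myostatin, encoded by Mstn, is a secreted TGF-β family ligand made by muscle fibres that restrains muscle growth. Gdf11 is its closest relative, and Inhba encodes the subunit from which activin A is built. All these ligands bind the type II receptors encoded by Acvr2a and Acvr2b and signal through Smad2 and Smad3. Follistatin, encoded by Fst, wraps around activins and myostatin and keeps them from the receptors, and Fstl1 is a secreted glycoprotein of the follistatin family found mostly in connective tissue.

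The promoter of Mstn is shown beside that of its relative Gdf11 because muscle regulatory factors such as MyoD bind the E-box motif, written CANNTG. Each line gives the 250 bases before the annotated gene start, 5′ to 3′, from RefSeq on GRCm38.p6, with E-boxes in capitals. The Mstn stretch is chr1:53061390-53061639 on the plus strand, and the Gdf11 stretch is chr10:128891719-128891968, read on the minus strand. Both lie immediately upstream of the gene.
Mstn: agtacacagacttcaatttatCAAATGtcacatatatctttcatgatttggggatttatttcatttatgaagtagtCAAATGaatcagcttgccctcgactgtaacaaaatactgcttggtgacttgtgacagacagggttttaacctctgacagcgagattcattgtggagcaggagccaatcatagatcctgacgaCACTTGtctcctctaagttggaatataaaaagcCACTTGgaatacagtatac
Gdf11: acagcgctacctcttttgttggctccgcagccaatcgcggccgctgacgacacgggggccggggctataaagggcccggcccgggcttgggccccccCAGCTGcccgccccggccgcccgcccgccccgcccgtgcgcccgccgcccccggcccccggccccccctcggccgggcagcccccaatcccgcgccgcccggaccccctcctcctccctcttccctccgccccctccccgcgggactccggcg
The Mstn promoter held 4 E-boxes and the Gdf11 promoter 1. CANNTG reads the same on both strands, and 66.2% of the 32851 mouse promoters of this length held at least 1, with a median of 1. The same stretches of Inhba, Fstl1, Acvr2a and Acvr2b held 0. A match is a string of letters and was not read as a bound site.

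Each section gave between 14179161 and 82859104 UMIs over 683 to 3460 spots with at least 1000 UMIs, and median UMIs per spot ranged from 15434 to 45284. Spots were called muscle where the mean of 9 muscle genes was above a threshold set in each section, which gave 491 to 3092 muscle spots and 102 to 580 other spots per section. The same 9 genes set the label, so their sums describe it and cannot check it. They came to between 16240 and 131900 CPM (UMIs scaled to a common total of 1000000) in muscle spots. In other spots they came to between 3110 and 47830 CPM. Other spots therefore still held muscle RNA. Liver RNA touched sections unequally, since the 5 hepatocyte markers summed to between 1.88 and 14190 CPM in other spots, and the E14.5 control 1 section alone carried adrenal cortex markers, at 1471 CPM against 3.13 to 8.1 CPM elsewhere. Levels below are CPM after TMM scaling, a correction for a few abundant genes taking up much of a library. Probe efficiency differs between genes and no value per length exists, so levels are compared between sections and never between genes. A spot with fewer cells of a type and a spot with less RNA per cell cannot be told apart. Counting intervals cover counting error only.

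Cacna1s, the gene missing in CaV1.1 -/- embryos, stood at 16.5, 14.96 and 18.4 CPM in E14.5 control muscle and at 13.4 CPM in CaV1.1 -/- muscle, a difference that did not pass the test (log2 fold change -0.30 ± 0.138 SE, adjusted p = 0.34). At E18.5 it stood at 84.4 and 87.3 CPM in controls and at 29.7 CPM in CaV1.1 -/- muscle (log2 fold change -1.53 ± 0.146, adjusted p = 0.00133). Probes can still bind transcripts of a disrupted gene, so these counts do not by themselves check the genotype. Ctnnb1, which encodes β-catenin, was 96.2 CPM in bCat cKO muscle and 104.6 and 97.4 CPM in E18.5 controls (log2 fold change -0.07 ± 0.123, adjusted p = 0.77). Whether the probes lie in the deleted part of Ctnnb1 was not examined, and spots also hold cells in which the Cre driver is silent.

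**Figure D1:**
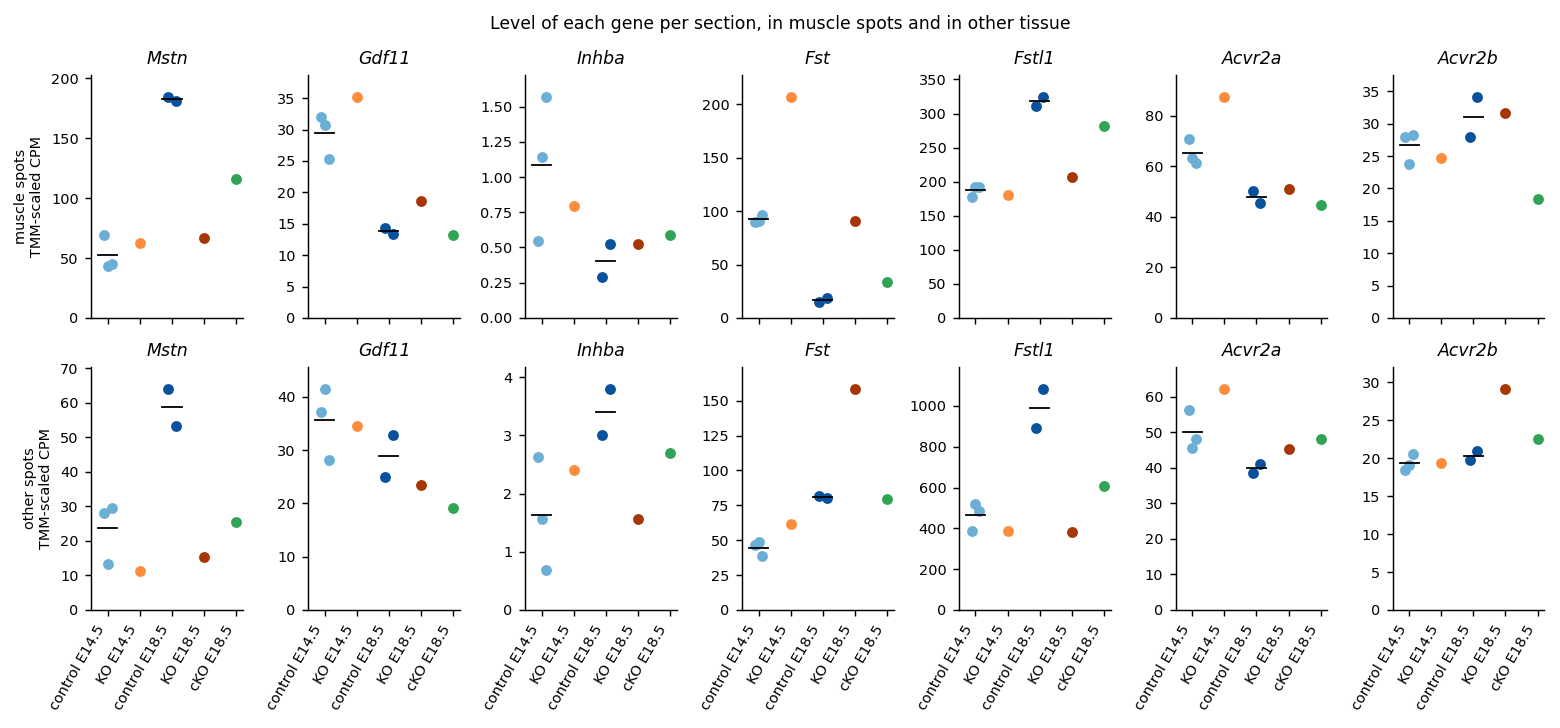
Each panel plots TMM-scaled CPM of 1 gene on the vertical axis, with 1 dot per section and a bar at the mean of the controls, for muscle spots (top) and other spots (bottom). KO is CaV1.1 -/- and cKO is bCat cKO. In muscle spots Mstn stands at 184.6 and 180.9 CPM in E18.5 controls against 66.8 CPM in the E18.5 KO, while Fst stands at 15.4 and 19.1 CPM against 90.5 CPM.

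Between E14.5 and E18.5 control muscle gained Mstn and lost Fst. Mstn was at 69.3, 43.3 and 45.1 CPM in the 3 E14.5 controls (52.6 ± 14.53, SD, n = 3) and at 184.6 and 180.9 CPM in the 2 E18.5 controls (182.8 ± 2.62, SD, n = 2). All 3 younger sections lay below both older ones. The rise was 3.48-fold (log2 fold change 1.80 ± 0.188, adjusted p = 9.21e-05 by edgeR's quasi-likelihood test). Fst was at 90.2, 91.1 and 96.1 CPM at E14.5 (92.5 ± 3.19, SD, n = 3) and at 15.4 and 19.1 CPM at E18.5 (17.2 ± 2.6, SD, n = 2). The groups did not overlap, and Fst fell 5.37-fold (log2 fold change -2.43 ± 0.11, adjusted p = 1.81e-06).

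The other ligands moved opposite to Mstn. Gdf11 was at 32.0, 30.8 and 25.4 CPM at E14.5 and at 14.3 and 13.3 CPM at E18.5, again without overlap, and fell 2.13-fold (log2 fold change -1.09 ± 0.122, adjusted p = 0.000129). Inhba was barely counted in muscle, at 0.549, 1.14 and 1.57 CPM at E14.5 and 0.291 and 0.521 CPM at E18.5, from 13 to 41 UMIs a section. Its fall passed the test narrowly (log2 fold change -1.40 ± 0.533, adjusted p = 0.0485). It no longer passed in 6 of 13 alternative analyses (adjusted p from 0.00958 to 0.197), among them those without control 2 (log2 fold change -1.35) or 3 (-1.08) at E14.5 or control 1 at E18.5 (-1.03).

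Fstl1, the other follistatin family member, was at 177.3, 191.6 and 192.9 CPM at E14.5 and at 310.7 and 324.8 CPM at E18.5. Both older sections lay above all 3 younger ones (log2 fold change 0.76 ± 0.0897, adjusted p = 0.000171). This call rested on the scaling: with total UMIs in place of TMM the log2 fold change was 0.04 (adjusted p = 0.726, alternatives from 8.94e-18 to 0.726). Of the receptors, Acvr2a was at 70.9, 63.2 and 61.4 CPM at E14.5 and at 50.1 and 45.6 CPM at E18.5, with no overlap, and fell (log2 fold change -0.45 ± 0.0939, adjusted p = 0.00375). Acvr2b was at 28.0, 23.8 and 28.3 CPM and then at 27.9 and 34.2 CPM, overlapping between stages (log2 fold change 0.22 ± 0.122, adjusted p = 0.146). Without TMM it was called lower (-0.50, adjusted p = 0.00738), and without control 1 at E18.5 it was called higher (0.36), with an adjusted p from 0.00738 to 0.676 over the alternatives.

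So 6 of the 7 genes changed with stage, 2 higher and 4 lower, beside 65.6% of the 14823 genes tested (33.2% higher and 32.4% lower). With a background that high, the count itself says little about these genes. Muscle genes summed to between 21640 and 27360 CPM at E14.5 and to 128400 and 131900 CPM at E18.5, and the 2 satellite cell markers, Pax7 and Myf5, to between 96.8 and 106.1 CPM and then to 33.9 and 41.7 CPM. Their part in the result was not tested. Without TMM the median gene shifted by -0.74 on the log2 scale and the share of called genes that were higher went from 50.6% to 19.9%. Of 31 further pathway genes tested, 15 rose and 7 fell, with a median log2 fold change of 0.21 against -0.01 over all genes. They included 5 further ligands, of which 3 rose, as Mstn did, and 1 fell. Tll2, an activating protease that frees myostatin from its propeptide, fell (log2 fold change -3.10 ± 0.286, adjusted p = 4.71e-05), as did its relative Tll1 (-2.11). Fstl3, a secreted inhibitor of activins and myostatin, rose by 2.44 ± 0.311. It was barely counted at E14.5, at 0.4644, 0.3892 and 0.5025 CPM, and stood at 2.07 and 2.80 CPM at E18.5.

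Muscle was then set against the other spots of the same control sections, with the section kept as a block. Mstn was the gene of muscle at both stages. At E14.5 it was at 76.7, 48.8 and 50.4 CPM in muscle spots and at 24.9, 11.7 and 25.9 CPM in other spots, with muscle above other tissue in every section (log2 fold change 1.65 ± 0.171, adjusted p = 0.000611). At E18.5 it was at 207.7 and 208.0 CPM in muscle and at 54.6 and 46.3 CPM outside it (log2 fold change 2.05 ± 0.183, adjusted p = 0.000125). The muscle excess was 3.15-fold and 4.13-fold, and the difference between stages did not pass the test (log2 0.39 ± 0.249, adjusted p = 0.307).

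Fst changed sides. At E14.5 it was at 99.8, 102.7 and 107.5 CPM in muscle and at 41.5, 42.3 and 33.7 CPM in other spots, higher in muscle in all 3 sections (log2 fold change 1.36 ± 0.104, adjusted p = 0.000228). At E18.5 it was at 17.3 and 21.9 CPM in muscle and at 69.6 and 69.8 CPM outside it, lower in muscle in both (log2 fold change -1.84 ± 0.123, adjusted p = 5.79e-05). The change between stages was itself called (log2 -3.20 ± 0.162, adjusted p = 0.0011), and all 11 alternative analyses called it too.

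Fstl1 was a gene of the surrounding tissue at both stages. It averaged 209.3 CPM in muscle and 407.2 CPM outside it at E14.5, and 361.6 and 850.8 CPM at E18.5. It was lower in muscle each time (log2 fold change -0.95 ± 0.0812, adjusted p = 0.000309, and -1.23 ± 0.0984, adjusted p = 8.82e-05). Both receptors leaned to muscle. Acvr2a exceeded other tissue by log2 0.74 ± 0.0782 at E14.5 (adjusted p = 0.000679) and 0.67 ± 0.0939 at E18.5 (adjusted p = 0.000973), although the E18.5 value was -0.01 without TMM, under which the median gene shifted by -0.69. Acvr2b exceeded it by 0.80 ± 0.0949 (adjusted p = 0.00101) and 1.01 ± 0.11 (adjusted p = 0.0003).

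Gdf11 was even across the tissues at E14.5, at 35.4, 34.7 and 28.4 CPM in muscle and 32.8, 36.3 and 24.6 CPM outside (log2 fold change 0.06 ± 0.113, adjusted p = 0.712). At E18.5 it was at 16.1 and 15.3 CPM in muscle and 21.3 and 28.4 CPM outside, lower in muscle in both sections (log2 fold change -0.66 ± 0.137, adjusted p = 0.00578). That call was lost without control 2 (-0.42), and the change between stages (-0.72 ± 0.177, adjusted p = 0.0309) was kept in only 6 of 11 alternatives, lost among others without any 1 of control 1 (-0.69), 2 (-0.80) or 3 (-0.67) at E14.5 or control 2 at E18.5 (-0.47). Inhba stood at 0.327 and 0.600 CPM in E18.5 muscle and at 2.56 and 3.30 CPM outside it (log2 fold change -2.68 ± 0.624, adjusted p = 0.00932), a call lost without control 1 (-2.48). The counts called were 5 of 7 at E14.5, beside 40.9% of 14117 genes, 7 of 7 at E18.5, beside 57.9%, and 2 of 7 for the change between stages, beside 21.0%. At these backgrounds the counts themselves say little about the group. Of 31 pathway genes, 5 were higher and 14 lower in muscle at each stage, with Tll2 (log2 fold change 2.37 ± 0.395) and the muscle atrophy gene Trim63 (1.99 ± 0.163) among those higher at E14.5. Among those lower were the activin subunit Inhbb at E14.5 (-2.03 ± 0.42, adjusted p = 0.00913) and Tll1 (-1.83 ± 0.341, adjusted p = 0.00359) and Fstl3 (-1.79 ± 0.41, adjusted p = 0.0087) at E18.5. The share of called genes that were higher in muscle went from 56.0% to 27.7% at E14.5 and from 53.7% to 15.6% at E18.5 when TMM was left out.

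Within muscle, spots were placed by genes of known position. Muscle spots in the top 15% for a score of 8 endplate genes, among them Chrna1 and Musk, formed the center. The top 15% for 4 myotendinous junction genes, among them Col22a1, formed the periphery, and the rest was intermediate. At E14.5 Mstn was at 94.7, 66.5 and 59.9 CPM in the center, 64.6, 40.0 and 43.8 CPM in intermediate muscle and 47.5, 34.6 and 40.0 CPM at the periphery. Every section ran from high center to low periphery (center log2 fold change 0.60 ± 0.0647, adjusted p = 8.11e-08, and periphery -0.28 ± 0.0818, adjusted p = 0.0342). The peripheral call was lost without control 1 (-0.21) or control 2 (-0.32).

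At E18.5 the order was another. Mstn was at 138.2 and 124.8 CPM in the center, 212.0 and 208.5 CPM in intermediate muscle and 117.1 and 115.4 CPM at the periphery. Intermediate muscle was now the highest in both sections, with the center lower (log2 fold change -0.68 ± 0.0498, adjusted p = 4.03e-11) and the periphery lower (-0.86 ± 0.0507, adjusted p = 1.72e-13). The change between stages passed the test for the center (-1.28 ± 0.0821, adjusted p = 8.36e-12) and the periphery (-0.58 ± 0.0996, adjusted p = 0.000166).

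Fst was concentrated in different regions at the 2 stages. At E14.5 it was at 103.1, 145.5 and 124.3 CPM in the center, 86.8, 85.0 and 94.2 CPM in intermediate muscle and 76.9, 62.5 and 84.3 CPM at the periphery. The center was the highest in all 3 sections (log2 fold change 0.52 ± 0.0787, adjusted p = 1.91e-05), and the periphery did not pass the test (-0.29 ± 0.0952, adjusted p = 0.0627) except, among single sections left out, without control 3 (-0.37). At E18.5 Fst was at 14.46 and 13.7 CPM in the center, 12.2 and 17.1 CPM in intermediate muscle and 28.0 and 32.1 CPM at the periphery. The periphery stood apart in both sections, 2.07-fold above intermediate muscle (log2 fold change 1.05 ± 0.133, adjusted p = 2.74e-07), and all 13 alternatives called it. The change between stages was called for the periphery (1.34 ± 0.162, adjusted p = 1.76e-06, 13 of 13 alternatives) and for the center (-0.55 ± 0.178, adjusted p = 0.0347). The center change was lost, among other alternatives, without control 2 at E14.5 (-0.34) or control 2 at E18.5 (-0.27).

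**Figure D2:**
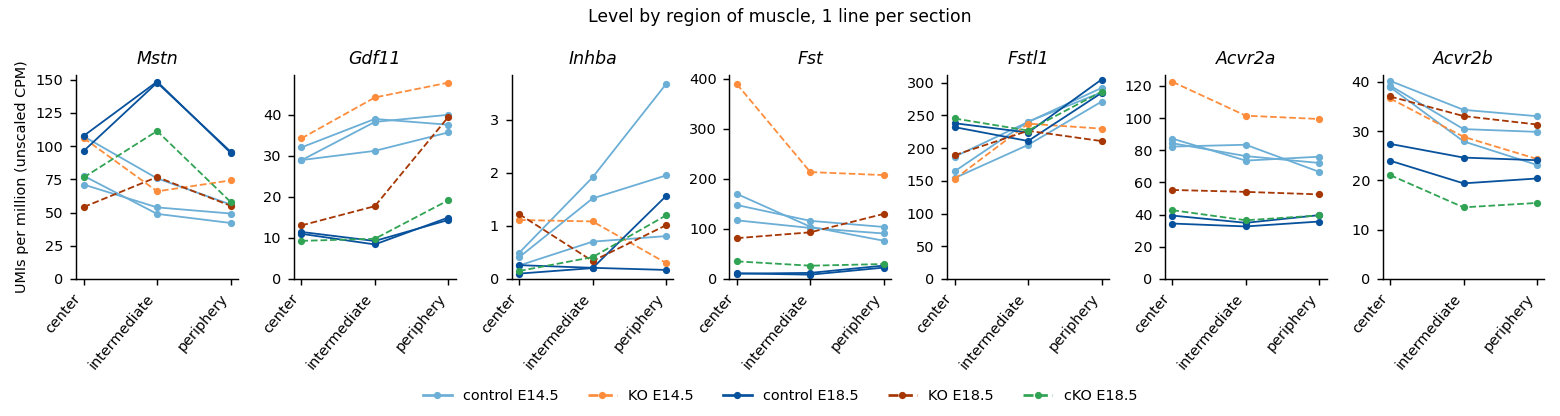
Each panel plots CPM before TMM scaling of 1 gene against the 3 regions of muscle, with 1 line per section, solid for controls and dashed for mutants. KO is CaV1.1 -/- and cKO is bCat cKO. Mstn peaks in intermediate muscle in the E18.5 controls, and Fst is highest in the center of the E14.5 KO, at 389.0 CPM.

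Fstl1 ran against Mstn at E14.5. It was at 135.9, 140.9 and 157.3 CPM in the center, 174.7, 196.2 and 195.0 CPM in intermediate muscle and 229.7, 233.8 and 237.2 CPM at the periphery. All 3 sections rose outward (center log2 fold change -0.40 ± 0.0473, adjusted p = 5.08e-07, and periphery 0.31 ± 0.0452, adjusted p = 3.51e-05). At E18.5 its periphery was still higher (0.22 ± 0.0442, adjusted p = 0.000249) and its center did not differ past the test (-0.02 ± 0.0448, adjusted p = 0.823). Acvr2b was higher in the E14.5 center, at 34.6, 33.4 and 33.9 CPM against 25.9, 22.8 and 27.9 CPM in intermediate muscle (0.44 ± 0.0852, adjusted p = 0.00042). Gdf11 was higher at the E18.5 periphery, where both controls exceeded their intermediate muscle, at 17.8 ± 0.212 against 12.52 ± 0.94 CPM (SD, n = 2, log2 fold change 0.50 ± 0.101, adjusted p = 0.000222, 13 of 13 alternatives). Inhba was called higher there too (1.65 ± 0.585, adjusted p = 0.0299), but at 0.210 and 1.88 CPM its rise came from 14 UMIs of control 2, without which the log2 fold change was -0.49. Acvr2a passed the test in none of these regions, and in the E14.5 center (0.17 ± 0.0619, adjusted p = 0.0673) it did so without control 1 (0.24).

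The members called were 4 of 7 in the E14.5 center, beside 15.6% of 13533 genes, and 2 of 7 at the E14.5 periphery, beside 7.15%. They were 1 of 7 in the E18.5 center, beside 13.2%, and 5 of 7 at the E18.5 periphery, beside 33.3%. The change between stages called 5 of 7 for the center, beside 14.7%, and 3 of 7 for the periphery, beside 11.7%. The count in the E18.5 center was at the background, and the others were above it. The 7 genes and the tests were chosen with earlier results of these data known, so these counts say little about the group. Without TMM the share of called genes that were higher went from 58.9% to 36.9% in the E14.5 center, from 32.9% to 86.0% in the E18.5 center and from 34.0% to 82.8% at the E18.5 periphery.

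The center calls held only for a center defined by endplate genes. Regions were also drawn by distance. The center was then the 15% of muscle spots farthest from other tissue, and the periphery those within 150 µm of it. None of the 7 genes was called in this center at either stage, beside 1 gene at E14.5 and 23 at E18.5 over all genes. With so few calls of any gene, the lack of calls says little about these 7. Mstn in the center was then 0.21 at E14.5 and 0.23 at E18.5 on the log2 scale, and Fst, Fstl1 and Acvr2b at E14.5 were -0.11, 0.01 and -0.00. By distance the peripheral calls of Mstn and Fstl1 at both stages and of Fst and Gdf11 at E18.5 were also made. Both receptors were then called lower at the periphery too, Acvr2a by -0.22 at E14.5 and -0.25 at E18.5 (adjusted p = 0.0263 and 0.0205) and Acvr2b by -0.40 and -0.30 (adjusted p = 0.00921 and 0.0399). Of 31 pathway genes, 8 were higher and 1 lower at the E14.5 periphery, beside 568 higher and 400 lower of 13533 genes (7.15% called). At the E18.5 periphery 13 were higher and 2 lower, beside 1531 and 2975 (33.3%). In the E14.5 center 3 were higher and 6 lower, beside 1246 and 871 (15.6%). In the E18.5 center 0 were higher and 2 lower, beside 585 and 1195 (13.2%), a share below the background. The pathway list was also chosen with earlier results known, so these counts say little about the pathway. Pcsk5, a proprotein convertase, was the pathway gene furthest above intermediate muscle at the E18.5 periphery (log2 fold change 1.08 ± 0.17, adjusted p = 9.53e-06), followed by the ligand Tgfb3 (0.63 ± 0.0468) and the inhibitory Smad7 (0.62 ± 0.08).

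Binned by distance from the nearest other spot, opposite gradients of Mstn and Fst at E18.5 were read without endplate or myotendinous junction genes. Values here are CPM before TMM scaling. The distance still rests on markers, since the muscle genes set the border between muscle and other spots. The part of that border choice in the gradients was not tested. Within 100 µm of other tissue Mstn was at 84.8 and 77.5 CPM in the 2 controls, and beyond 400 µm at 149.3 and 144.1 CPM. Over the same span Fst went from 28.0 and 36.8 CPM to 7.77 and 10.2 CPM. Both controls showed the same order in every bin for Mstn. In the bCat cKO section the pair ran the same way by distance, with Mstn going from 58.6 to 115.8 CPM and Fst from 44.4 to 21.5 CPM. In the regions set by marker genes, however, Fst at its periphery did not stand above its center. In the E18.5 CaV1.1 -/- section Mstn was 45.1 CPM within 100 µm, 114.9 CPM between 300 and 400 µm and 82.7 CPM beyond that, and Fst was 124.8, 76.3 and 89.4 CPM. At E14.5 Fst stayed between 92.4 and 135.9 CPM in every plotted bin of the controls, with no order shared by the sections. These values are a description with no test. Spots near the border can mix in RNA of other tissue. In E18.5 controls, after TMM scaling, Fst averaged 69.7 CPM in other tissue and 19.6 CPM in muscle. Mstn averaged 50.5 CPM in other tissue and 207.8 CPM in muscle. The part of such mixing in these gradients and in the peripheral calls was not tested.

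**Figure D3:**
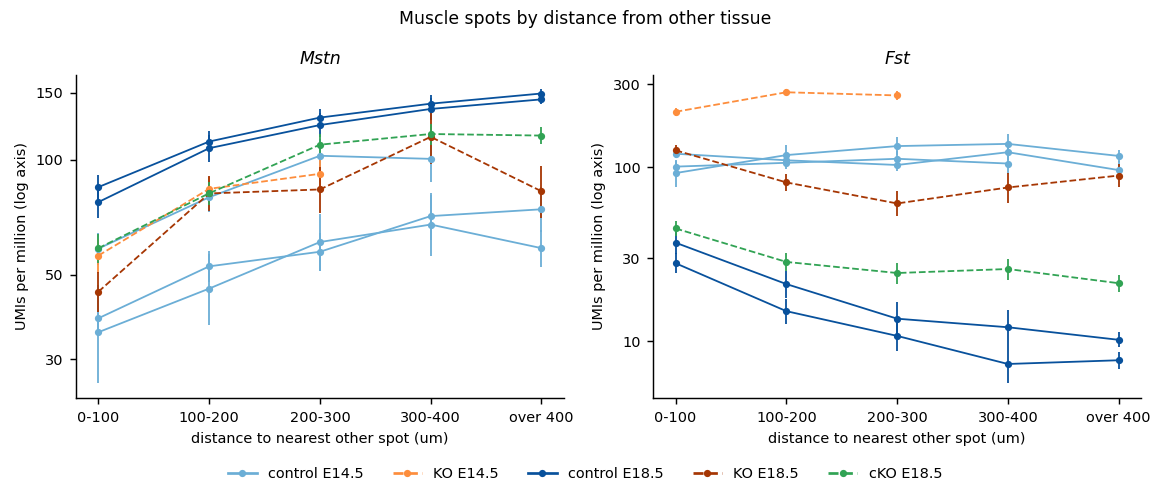
The panels plot Mstn and Fst in CPM of muscle spots before TMM scaling on a log axis against distance in µm from the nearest other spot, with 1 line per section, 95% counting intervals as bars and bins under 20 spots left out. KO is CaV1.1 -/- and cKO is bCat cKO. In the E18.5 controls Mstn climbs to 149.3 and 144.1 CPM beyond 400 µm while Fst drops to 7.77 and 10.2 CPM.

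Fst was higher in the CaV1.1 -/- muscle section than in controls at both stages. At E14.5 Fst was at 207.2 CPM in CaV1.1 -/- muscle, above all 3 controls at 90.2, 91.1 and 96.1 CPM. The rise was 2.24-fold (log2 fold change 1.17 ± 0.117, adjusted p = 0.00822). It kept its direction in all 13 alternatives and passed the test in 11 of them (adjusted p from 9.35e-12 to 0.0674), being lost when replicate numbers were blocked (1.27, adjusted p = 0.0674) and when all spots were pooled (0.80, adjusted p = 0.0626). In the muscle spots of this section muscle genes summed to 16240 CPM against 21640 to 27360 CPM in the controls, the 4 macrophage markers to 162.9 CPM against 88.5 to 101.5 CPM and the 5 endothelial markers to 169.4 CPM against 235.7 to 334.9 CPM. None of these markers was at 0, and their part in the result was not tested. None of the other 6 genes passed. Mstn was at 62.9 CPM, inside the control range of 43.3 to 69.3 CPM (log2 fold change 0.26 ± 0.241, adjusted p = 0.659), and Acvr2a, at 87.5 CPM, stood above the controls at 61.4 to 70.9 CPM without passing (0.43 ± 0.115, adjusted p = 0.123). The count was 1 of 7 beside 2.08% of genes called, and 0 of 31 pathway genes were called.

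At E18.5 both sides of the pair had moved. Fst was at 90.5 CPM in CaV1.1 -/- muscle against 15.4 and 19.1 CPM in controls, 5.26-fold higher (log2 fold change 2.40 ± 0.131, adjusted p = 0.000552, alternatives up to 0.0134). Mstn was at 66.8 CPM against 184.6 and 180.9 CPM, 2.74-fold lower (log2 fold change -1.45 ± 0.274, adjusted p = 0.00919, alternatives up to 0.0209). Both calls held in 13 of 13 alternatives. In level, the E18.5 mutant lay at the E14.5 controls for both genes, whose ranges were 90.2 to 96.1 CPM for Fst and 43.3 to 69.3 CPM for Mstn. Other genes called with stage did not lie in the E14.5 range. Gdf11 was at 18.6 CPM against 25.4 to 32.0 CPM, Acvr2a at 51.2 against 61.4 to 70.9 CPM and Fstl1 at 206.9 against 177.3 to 192.9 CPM. The E18.5 mutant was not tested against the E14.5 controls.

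**Figure D4:**
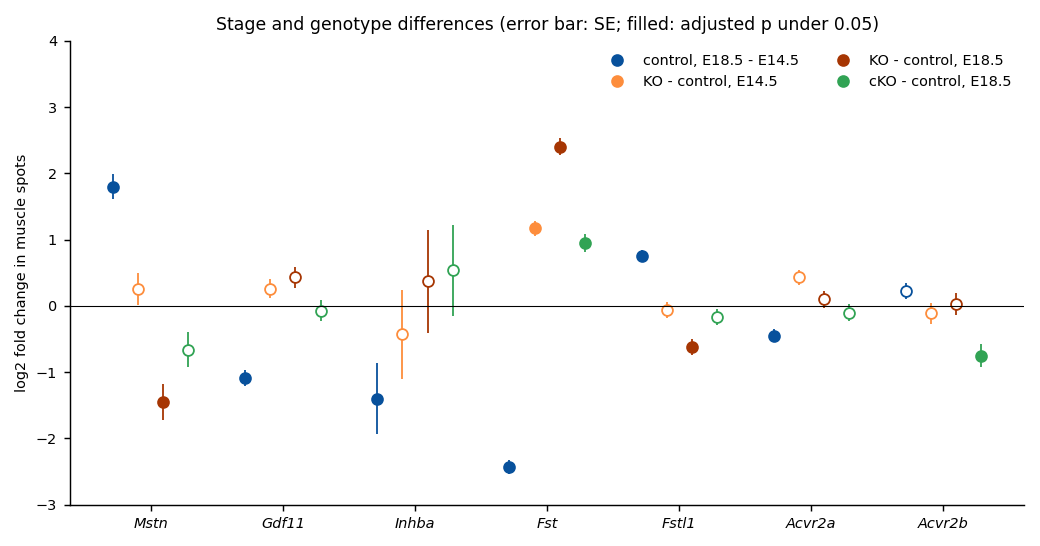
The vertical axis is the log2 fold change in muscle spots and each gene has 4 points, for E18.5 against E14.5 controls and for each mutant section against its stage controls, with SE as bars and filled points where adjusted p was under 0.05. KO is CaV1.1 -/- and cKO is bCat cKO. Fst lies at -2.43 with stage and at 2.40 in the E18.5 KO, and Mstn at 1.80 and -1.45.

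Fstl1 was at 206.9 CPM in E18.5 CaV1.1 -/- muscle, below both controls at 310.7 and 324.8 CPM (log2 fold change -0.62 ± 0.125, adjusted p = 0.012). Without TMM, under which the median gene shifted by 0.54, its value was -0.08 (adjusted p = 0.617, the highest of the alternatives). Gdf11, at 18.6 CPM against 14.3 and 13.3 CPM, did not pass (0.43 ± 0.162, adjusted p = 0.0926). It was called higher without TMM (0.97, adjusted p = 0.00174) and in muscle spots above their section's median muscle score (0.69, adjusted p = 0.0163), with an adjusted p of up to 0.245 over the alternatives. The receptors sat within or close to the controls, Acvr2a at 51.2 CPM (0.10 ± 0.126, adjusted p = 0.609) and Acvr2b at 31.6 CPM (0.03 ± 0.166, adjusted p = 0.922), and both were called higher without TMM (0.64 and 0.56). Inhba rested on 9 UMIs in this section.

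Thus 3 of 7 genes were called at E18.5 beside 25.7% of all genes, a share above the background but not far from it. The share of called genes that were higher went from 41.2% to 90.7% without TMM. The change of the CaV1.1 effect between stages passed for Mstn (log2 -1.71 ± 0.357, adjusted p = 0.0383) and for Fst (1.23 ± 0.185, adjusted p = 0.0227), 2 of 7 beside 6.4%. Both were lost without control 2 at E14.5 (Mstn -1.58, adjusted p = 0.0626, and Fst 1.24, adjusted p = 0.0509) and without control 3 at E14.5 (-1.62, adjusted p = 0.0977, and 1.20, adjusted p = 0.076). That of Mstn was also lost without control 1 at E18.5 (-1.69, adjusted p = 0.0539). Over the alternatives the adjusted p ran from 7.59e-05 to 0.0977 for Mstn and from 2.67e-06 to 0.076 for Fst.

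Muscle RNA was itself lower in the E18.5 CaV1.1 -/- muscle spots, where the 9 muscle genes summed to 71380 CPM against 128400 and 131900 CPM in controls. All 4 macrophage markers were counted there and summed to 289.3 CPM against 81.3 and 107.4 CPM, and the 4 Schwann cell markers to 107.8 CPM against 25.8 and 26.6 CPM. Mesothelium markers summed to 226.4 CPM against 46.0 and 144.7 CPM, fibroblast markers to 7389 against 4830 and 6861 CPM. Satellite cell markers summed to 51.0 against 33.9 and 41.7 CPM. Smooth muscle, endothelial, erythrocyte and cartilage markers were lower than in both controls. With only the muscle spots above their section's median muscle score, Fst was 2.59 and Mstn -1.18 on the log2 scale, and both stayed called. That median is each section's own, so muscle content was not made equal between sections. The part of these tissues in the result was not tested. Among 31 pathway genes 5 rose and 4 fell in E18.5 CaV1.1 -/- muscle, beside 25.7% of all genes called. Their median was -0.07 against 0.0 over all genes. The activin subunit Inhbb rose (log2 fold change 1.33 ± 0.356, adjusted p = 0.0317), as did the latent TGF-β binding protein Ltbp1 (0.88 ± 0.184, adjusted p = 0.013), the first in 9 of 13 alternatives (up to 0.0928) and the second in 12 of 13 (up to 0.143). Smad7, a target and brake of the pathway, fell (adjusted p = 0.00588, 12 of 13 alternatives).

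Muscle of the bCat cKO embryo also had more Fst than that of the controls. Fst was at 33.3 CPM, above both E18.5 controls at 15.4 and 19.1 CPM, 1.94-fold higher (log2 fold change 0.95 ± 0.133, adjusted p = 0.00833). It was called in 12 of 13 alternatives and lost when replicate numbers were blocked (1.04, adjusted p = 0.0526, the highest). Acvr2b was at 18.4 CPM, below the controls at 27.9 and 34.2 CPM, 1.69-fold lower (log2 fold change -0.75 ± 0.169, adjusted p = 0.0367). That call was kept in 7 of 13 alternatives (adjusted p from 0.00777 to 0.135) and was lost without control 3 at E14.5 (-0.76, adjusted p = 0.0772) or control 2 at E18.5 (-0.60, adjusted p = 0.0757).

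Mstn, at 116.0 CPM in bCat cKO muscle, lay below both controls at 184.6 and 180.9 CPM without passing the test (log2 fold change -0.66 ± 0.259, adjusted p = 0.164), and 3 of 13 alternatives called it, 1 of them without control 1 at E14.5 (-0.66). Fstl1 at 281.8 CPM, Gdf11 at 13.2 CPM and Acvr2a at 44.7 CPM lay below both controls by small amounts that did not pass (adjusted p from 0.423 to 0.836), and Inhba rested on 24 UMIs. By region, before TMM scaling, Mstn in bCat cKO muscle was at 76.4 CPM in the center, 111.4 CPM in intermediate muscle and 58.0 CPM at the periphery, and in E18.5 CaV1.1 -/- muscle at 54.1, 76.7 and 55.1 CPM. In both mutants, as in the E18.5 controls, intermediate muscle held the most Mstn. Fst UMIs in bCat cKO muscle numbered 235 over 224 center spots, 902 over 1120 intermediate spots and 224 over 233 peripheral spots. Its periphery thus did not stand above its center for Fst, unlike in the E18.5 controls. In E18.5 CaV1.1 -/- muscle they numbered 200 over 121, 1104 over 578 and 257 over 114 spots. In bCat cKO muscle 2 of 7 genes were called beside 8.8% of all genes. In that fit the share of higher genes went from 36.1% to 79.9% without TMM. In the muscle spots of this section muscle genes summed to 105200 CPM against 128400 and 131900 CPM in the E18.5 controls. Macrophage markers summed to 177.4 CPM against 81.3 and 107.4 CPM, and smooth muscle markers to 567.9 CPM against 307.6 and 312.5 CPM. Fibroblast markers summed to 7544 CPM against 4830 and 6861 CPM. Endothelial markers were lower, at 343.9 CPM against 507.6 and 449.7 CPM. Their part in the result was not tested. Among 31 pathway genes 1 rose, Tgfb3 (0.59 ± 0.138, adjusted p = 0.0422), and 1 fell, the muscle atrophy ligase Fbxo32 (-1.39 ± 0.211, adjusted p = 0.0106). Tgfb3 was called in only 7 of 13 alternatives (adjusted p up to 0.217) and Fbxo32 in 12 of 13 (up to 0.0746). Both mutant sections at E18.5 were compared with the same 2 controls.

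Outside muscle the stage pattern differed for Fst. In other spots of controls Fst was at 46.9, 48.4 and 38.4 CPM at E14.5 and at 81.6 and 80.5 CPM at E18.5, without overlap, and rose 1.8-fold (log2 fold change 0.84 ± 0.129, adjusted p = 0.00662, 12 of 12 alternatives). Fstl1 rose from 385.4, 518.7 and 487.3 CPM to 893.1 and 1085 CPM (1.09 ± 0.179, adjusted p = 0.00828, 12 of 12 alternatives). Mstn there, at 28.1, 13.4 and 29.5 CPM and then 64.1 and 53.4 CPM, also rose (1.35 ± 0.341, adjusted p = 0.0298), a call lost in 5 of 12 alternatives, among them those without control 3 at E14.5 (1.49), control 1 at E18.5 (1.22) or control 2 at E18.5 (1.48). Muscle genes in these spots summed to 5636 to 8681 CPM at E14.5 and to 47830 and 31870 CPM at E18.5, and their part in the Mstn rise was not tested. The count was 3 of 7 beside 30.5% of 14790 genes. Of 32 pathway genes 9 rose and 1 fell, with Fstl3 (3.09 ± 0.616, adjusted p = 0.0147) and the co-receptor gene Tgfbr3 (1.36 ± 0.142, adjusted p = 0.00253) among those that rose.

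In the mutants none of the 7 genes passed in other spots, where few genes did at all: 0.0% for CaV1.1 -/- at E14.5 (0 of 14790 by edgeR, with 1203 at an unadjusted p under 0.05 and 175 called by DESeq2), 0.108% at E18.5 and 1.22% in the bCat cKO. Fst outside muscle was at 158.6 CPM in the E18.5 CaV1.1 -/- section against 81.6 and 80.5 CPM in controls (log2 fold change 0.97 ± 0.165, adjusted p = 0.144). Mstn was at 15.4 CPM against 64.1 and 53.4 CPM (-1.93 ± 0.5, adjusted p = 0.225) and Fstl1 at 382.4 CPM against 893.1 and 1085 CPM (-1.37 ± 0.26, adjusted p = 0.164). Each of the 3 lay outside the control range, and DESeq2 called all 3 (adjusted p = 0.0162 for Mstn, 0.00181 for Fst and 5.35e-06 for Fstl1, with alternatives up to 0.68, 0.628 and 0.525). In the bCat cKO section Mstn was at 25.4 CPM outside muscle (-1.21 ± 0.472, adjusted p = 0.323) and Fst at 79.6 CPM (-0.03 ± 0.17, adjusted p = 0.961). Muscle genes in other spots summed to 20090 CPM in the E18.5 CaV1.1 -/- section and to 15870 CPM in the bCat cKO. In the E18.5 controls they summed to 47830 and 31870 CPM. Their part in the lower Mstn values was not tested. Hepatocyte markers summed to 14190 CPM in the other spots of the E18.5 CaV1.1 -/- section and to 10870 and 1.88 CPM in those of the controls. The tissues around the muscle were therefore not the same in each section.

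The ratio of Mstn to Fst UMIs puts both genes on 1 scale within a section and needs no scaling between libraries. It is read between sections only. In muscle it was 0.768, 0.475 and 0.469 in the E14.5 controls and 12.01 and 9.49 in the E18.5 controls. It was 0.304 (95% exact counting interval 0.287 to 0.321) in E14.5 CaV1.1 -/- muscle and 0.738 (0.683 to 0.797) in E18.5 CaV1.1 -/- muscle, and 3.48 (3.28 to 3.70) in bCat cKO muscle. The E14.5 mutant thus lay below all its controls, the E18.5 mutant within the E14.5 control range, and the bCat cKO between the stages. In other spots the controls gave 0.599, 0.276 and 0.768 at E14.5 and 0.785 and 0.663 at E18.5, overlapping between stages. Within E18.5 control muscle it was 9.56 and 9.11 in the center, 17.4 and 12.2 in intermediate muscle and 4.19 and 3.59 at the periphery. E18.5 CaV1.1 -/- muscle gave 0.665, 0.824 and 0.424 in the same regions, below the controls in each.

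The same shift was seen in how many spots held a UMI. Fst was counted in 20.7% and 28.7% of muscle spots in E18.5 controls, in 74.4% in E18.5 CaV1.1 -/- muscle and in 49.0% in bCat cKO muscle, against 75.8% to 88.4% in E14.5 controls. Mstn was counted in 89.9% and 92.1% of E18.5 control muscle spots and in 61.8% in CaV1.1 -/- muscle. Depth per spot differs between sections, so these shares follow depth as well as level.

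**Figure D5:**
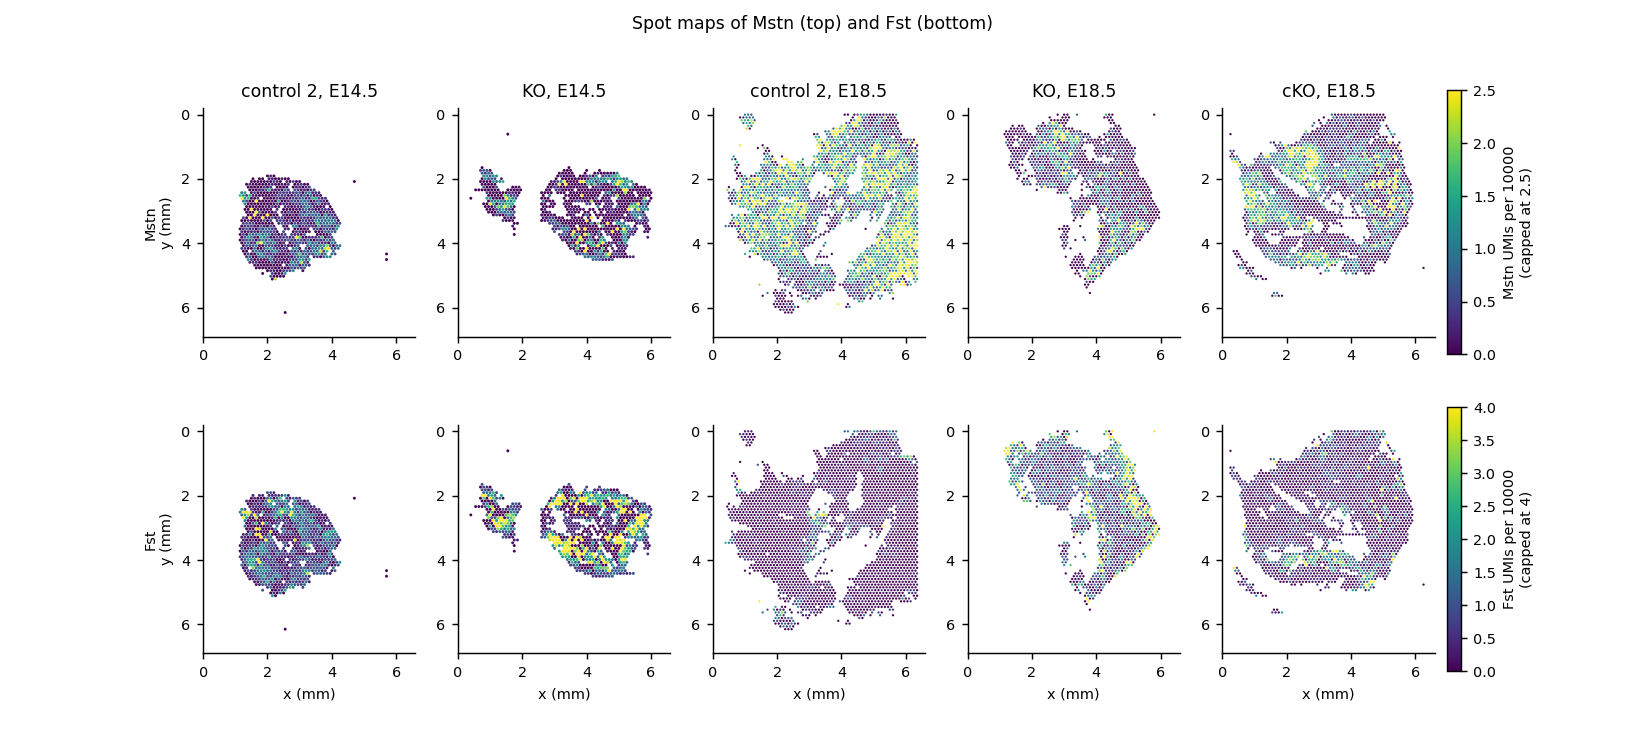
The panels map each spot of 5 sections at its position in mm, coloured by UMIs of Mstn (top, capped at 2.5) and Fst (bottom, capped at 4) per 10000 UMIs of the spot. KO is CaV1.1 -/- and cKO is bCat cKO. The colours are not TMM-scaled. After TMM scaling, Mstn was at 180.9 CPM over the muscle spots of the mapped E18.5 control and Fst at 207.2 CPM over those of the E14.5 KO.

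Spot by spot, Mstn and Fst were only weakly related within muscle. Over the muscle spots of each section Pearson's r was -0.003, 0.173 and 0.048 in the E14.5 controls, -0.105 and -0.162 in the E18.5 controls, 0.250 and -0.251 in the CaV1.1 -/- sections of E14.5 and E18.5 and -0.117 in the bCat cKO. The sign was negative in all 4 E18.5 sections. These are descriptions over 491 to 3092 spots that share 1 library, its depth and its muscle content, and at these counts a weak r is no finding. Over all spots of the 5 control sections, the genes most like Mstn among 10061 candidates were Atp2a1, the fast muscle calcium pump (mean r 0.386), the muscle enolase Eno3 (0.385) and the muscle creatine kinase Ckm (0.373). Those most like Fstl1 were the fibrillar collagen genes Col1a2 (0.618), Col3a1 (0.617) and Col1a1 (0.613). Fst was most like the tubulin gene Tubb6, at a mean r of 0.235 (0.057 to 0.381 by section). The growth factor binding protein genes Igfbp3 (0.215, 0.142 to 0.34) and Igfbp2 (0.207, 0.071 to 0.379) came next. With Gdf11, Inhba or either receptor no gene reached a mean r of 0.2.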

How the data were processed

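Count matrices of UMIs per gene and spot were deposited by the authors, made with Space Ranger on mm10 with the mouse transcriptome probe set. No normalised values were used. Spots with at least 1000 UMIs were kept. A threshold by Otsu's method on 9 muscle genes separated 491 to 3092 muscle spots per section from other spots, and 8 endplate and 4 myotendinous junction genes defined center and periphery at a share of 15%. Counts were summed per section and region and tested with edgeR 4.0.16 (filterByExpr, TMM, quasi-likelihood F test, Benjamini-Hochberg over all genes, threshold 0.05) in R 4.3.3. Muscle and other spots were fitted over all 8 sections in 5 groups, and tissues and regions over the 5 controls with the section as a block. Scripts were tested on simulated data. The 7 genes, the pathway list, the marker lists and the tests were chosen with earlier results of these data known. Pathway genes named are up to 4 called genes per comparison with the largest change, and 1 such gene is not reported here. Genes most alike in pattern had the highest mean Pearson correlation over the spots of the 5 controls. DESeq2 1.42.0 and other settings served as alternatives. Each section is a separate diaphragm. For stage and genotype, p-values measure the spread between diaphragms, and single mutant sections were assumed to vary like the controls. For tissues and regions the section block removes the spread in level between diaphragms. Those p-values measure how far the differences within a section vary from section to section. Replicate numbers of E14.5 and E18.5 controls come from different embryos and do not pair sections.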

Additional observations from a re-analysis of the deposited data

Results flagged for a closer look

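For 12 values the effect itself differed between E14.5 and E18.5 by edgeR, always given here as the E18.5 effect minus the E14.5 effect on the log2 scale. For muscle against other tissue these were Fst at -3.20 and Gdf11 at -0.72. For the center against intermediate muscle they were Mstn at -1.28, Fst at -0.55, Fstl1 at 0.37, Gdf11 at 0.44 and Acvr2b at -0.35. For the periphery they were Mstn at -0.58, Fst at 1.34 and Gdf11 at 0.47. For CaV1.1 -/- against control muscle they were Mstn at -1.71 and Fst at 1.23.

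Of the center values, Gdf11 (adjusted p = 0.0317) and Acvr2b (adjusted p = 0.0377) were each called in 4 of 13 alternatives. Both were lost without control 1 or 2 at E14.5 (Gdf11 0.40 and 0.46, Acvr2b -0.33 and -0.27) and without either control at E18.5 (Gdf11 0.50 and 0.38, Acvr2b -0.41 and -0.29). Gdf11 at the periphery (adjusted p = 0.0192) was lost in 6 of 13 alternatives, without control 2 at E14.5 (0.40), without control 2 at E18.5 (0.38), by DESeq2 (0.48), without the section block (0.45), at a region share of 25% (0.44) and by distance (0.22). Fst at the periphery and Fst in muscle against other tissue were called in every alternative run.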

How the results depend on the processing

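Of 51 differences called for the 7 genes, 22 kept their call and direction under every alternative run, and of 632 alternative values 538 did, 84 were no longer called and 10 changed direction. Another 70 values changed sign without being called under either setting. With regions drawn by distance the center values at E14.5 became -0.11 for Fst, 0.01 for Fstl1 and -0.00 for Acvr2b, Mstn in the E18.5 center became 0.23, and the center differences between stages became 0.02 for Mstn, -0.15 for Fstl1, -0.12 for Gdf11 and 0.19 for Acvr2b. Without TMM Acvr2a in muscle against other tissue at E18.5 was -0.01 and Acvr2b with stage was -0.50. Inhba at the E18.5 periphery was -0.49 to 2.66 with 1 control left out, the lowest without control 2 and the highest without control 1 at E18.5. The causes were not tested.

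The number of the 7 genes called changed as follows. In the E14.5 center it was 4, with 1 without the section block and 0 by distance. At the E14.5 periphery it was 2, with 1 by DESeq2, 0 without the block, 4 by distance and 1 to 3 with 1 control left out. In the E18.5 center it was 1, with 3 without TMM, 0 without the block, 2 at a region share of 10% and 0 by distance, and at the E18.5 periphery 5, with 3 without the block. For the difference between stages it was 5 in the center (2 by DESeq2, 3 without TMM, 0 without the block, 3 at shares of 10% and 25%, 0 by distance, 2 to 5 with 1 control left out), 3 at the periphery (1 without the block) and 2 for muscle against other tissue (5 without TMM, 1 without the block, 1 to 2 with 1 control left out). For CaV1.1 -/- muscle it was 1 at E14.5, with 2 in muscle spots above their section's median score and 0 over all spots, and 3 at E18.5, with 5 without TMM. The bCat cKO count was 2, with 1 without TMM and 1 to 3 with 1 control left out, that of the difference in CaV1.1 effect 2, with 0 to 2, and that of CaV1.1 -/- other spots at E18.5 0, with 3 by DESeq2.

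Replicate numbers do not pair the sections, since they come from different embryos. Deviations of same-numbered controls from their group means correlated at -0.36 and -0.346. The deviations of the E18.5 controls mirror each other, so these correlations cannot show whether sections are paired. With the number as a replicate block the count was 0 for CaV1.1 -/- at E14.5, for the bCat cKO and for the difference in CaV1.1 effect.

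Counts over all genes that moved by more than 1.5 times, with the lowest and highest alternative, were 2117 in the E14.5 center (1 by distance, 179 without the block), 968 at the E14.5 periphery (52 without the block, 1854 by distance), 1780 in the E18.5 center (23 by distance), 4506 at the E18.5 periphery (1084 without the block), 308 for CaV1.1 -/- muscle at E14.5 (0 with the replicate block, 715 by DESeq2), 3810 at E18.5 (2389 with only the groups compared, 7991 without TMM), 1305 for the bCat cKO (81 with the replicate block, 2826 without TMM), 5780 for muscle against other tissue at E14.5 (2982 without control 2 at E14.5), 949 for the difference in CaV1.1 effect (0 with the replicate block, 4655 without TMM), 2969 for the difference between stages of muscle against other tissue (1433 without control 2 at E18.5, 6003 without TMM), 1994 for that of the center (7 by distance, 3068 without TMM) and 1585 for that of the periphery (68 without the block, 3310 without TMM). In other spots they were 4513 with stage (2195 in those below the section's median muscle score), 0 for CaV1.1 -/- at E14.5 (175 by DESeq2), 16 at E18.5 (0 with the replicate block, 395 by DESeq2) and 181 for the bCat cKO (0 with the replicate block, 569 by DESeq2). Depth limited Inhba, at 9 to 41 UMIs in the muscle spots of a section.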

Other observations

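Outside muscle, the 10% of other spots richest in tendon markers (Tnmd, Scx, Fmod, Col12a1 and Col11a1) held more Mstn than the remaining other spots in 8 of 8 sections, in CPM before TMM scaling. In the E14.5 controls Mstn was at 84.0, 26.8 and 89.3 CPM in tendon-rich spots and 28.1, 13.0 and 24.6 CPM in the rest. In the E18.5 controls it was at 57.0 and 115.4 CPM against 54.2 and 41.3 CPM. The CaV1.1 -/- sections gave 33.5 against 10.9 CPM at E14.5 and 31.7 against 13.95 CPM at E18.5, and the bCat cKO 95.4 against 17.5 CPM. Fst ran the other way in 8 of 8 sections, at 25.5 to 103.1 CPM in tendon-rich spots and 44.1 to 163.5 CPM in the rest.

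These spots were few, 10 to 58 per section with 14 to 118 Mstn UMIs, and the values carry no test. Muscle genes summed to less in tendon-rich spots than in the rest in 5 of the 8 sections, for example to 21590 against 33030 CPM in E18.5 control 2, and to more in the other 3. Their part in the Mstn values was not tested. Tendon was 1 of 12 marker lists looked at. Mstn was also higher in 3 of 3 E14.5 controls in spots rich in cartilage, Schwann cell or endothelial markers (median log2 1.04, 0.63 and 0.11). At E18.5 it was higher in 1, 1 and 0 of 2 controls for these lists.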
